A study of Homo sapiens with 6 samples.

Results

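The major histocompatibility complex (MHC) was examined as the stretch chr6:28477797-33448354 of hg19, taken here as class I up to 31400000, class III between 31400000 and 32200000, and class II from 32200000 on. Its members are all ATAC-seq peaks of 6 libraries that overlap this stretch. In ATAC-seq a transposase inserts sequencing adapters where chromatin is open, so a peak marks accessible DNA. The 6 lists held 907 entries there of 162518 in all, and after entries that overlap within a list were merged, the union of the lists held 164 MHC regions of 32037 genome-wide. The limits were set by position alone, without use of any measured value.

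The MHC is one of the most gene-dense parts of the human genome. Class I is named for antigen-presenting molecules that show peptides from inside the cell to CD8+ T cells and that most nucleated cells express. Class II holds the HLA-DR, HLA-DQ and HLA-DP genes, whose products show peptides to CD4+ T cells and which are mainly expressed by antigen-presenting cells, together with genes for loading peptides onto class I molecules. Class III lies between them and holds genes of other kinds, among them complement components, the tumour necrosis factor family and heat shock proteins. No gene annotation of hg19 was used here, so regions are given by position and none is assigned to a gene, and markers of T cells were not checked.

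All samples were CCRF-CEM, an established human T lymphoblast leukaemia line, either as wild-type parent cells, which express SLFN11, or as SLFN11-knockout cells. SLFN11 is a protein that acts at stalled replication forks and makes cells sensitive to DNA-damaging drugs. Cells of each genotype received DMSO, the solvent, or 100 nM camptothecin, a drug that traps topoisomerase I on DNA and stalls replication, for 2 h or 4 h. The study asks how chromatin changes under replication stress with and without SLFN11. There was 1 library in each group, so no value has a spread between replicates, no p-value is given, and 95% Wilson intervals cover counting error only. The number of clones behind the knockout is not given in the sources used here, so clone and genotype cannot be told apart.

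Conditions are given by the library code that each list carries in its peak identifiers, matched to the code in the sample titles. The lists are recorded under other samples, and code and recorded sample matched in 0 of 6 cases. As recorded, the list called DMSO below belongs to the 4 h sample, the list called 2 h to the DMSO sample and the list called 4 h to the 2 h sample, in both genotypes. Comparisons between genotypes pair the same lists either way, and their treatment name changes. Whole lists held 14205 merged peaks in parent DMSO, 23665 in parent 2 h and 21617 in parent 4 h, and between 19167 and 20894 in the knockout libraries. The median number of reads piled up at the summit of a peak was lowest in parent DMSO, at 17. It was 26 in parent 2 h, 29 in parent 4 h and 18 to 20 in the knockout libraries. Read totals were not used, so this is no measure of sequencing depth. The lowest local background at a peak, derived from fold and pileup, was 1.22 reads in parent DMSO. It was 1.29 in parent 2 h, 1.26 in parent 4 h and 1.27 to 1.37 in the knockout lists.

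Accessible regions were denser in the MHC than along the rest of chromosome 6 in each of the 6 libraries, and densest in class III. The MHC held 67 merged peaks in parent DMSO, 140 in parent 2 h and 140 in parent 4 h. In knockout cells it held 102 in DMSO, 112 at 2 h and 93 at 4 h. The parent DMSO list was the lowest and both parent camptothecin lists were the highest, with all knockout lists between them.

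Per megabase, class III carried 22.5 peaks in parent DMSO, 50 in parent 2 h and 42.5 in parent 4 h, and 35, 41.3 and 31.3 in the knockout lists in the same order of treatment. Class II carried 14.4, 23.2 and 26.4 peaks per megabase in the parent lists and 16.8, 22.4 and 16.8 in the knockout lists. Class I carried 10.6, 24.3 and 25.0 in the parent lists and 18.1, 17.5 and 16.1 in the knockout lists. Class I and class II were thus close, with class I the sparser one in parent DMSO, parent 4 h, knockout 2 h and knockout 4 h. The rest of chromosome 6 carried between 4.80 peaks per megabase in parent DMSO and 7.28 in parent 2 h. Class I is the longest part, at 2.92 Mb against 0.8 Mb for class III and 1.25 Mb for class II, and held between 45.5% and 52.1% of the MHC peaks of a list. In class III, peaks covered 0.893% of the sequence in parent DMSO, 2.69% at 2 h and 2.61% at 4 h, and between 1.30% and 1.73% in the knockout lists. The median MHC peak was 335 bp wide in parent DMSO, 512 bp at 2 h and 494 bp at 4 h, and 361 to 395 bp in the knockout lists, against 354, 452 and 487 bp outside the MHC in the parent lists.

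**Figure D1:**
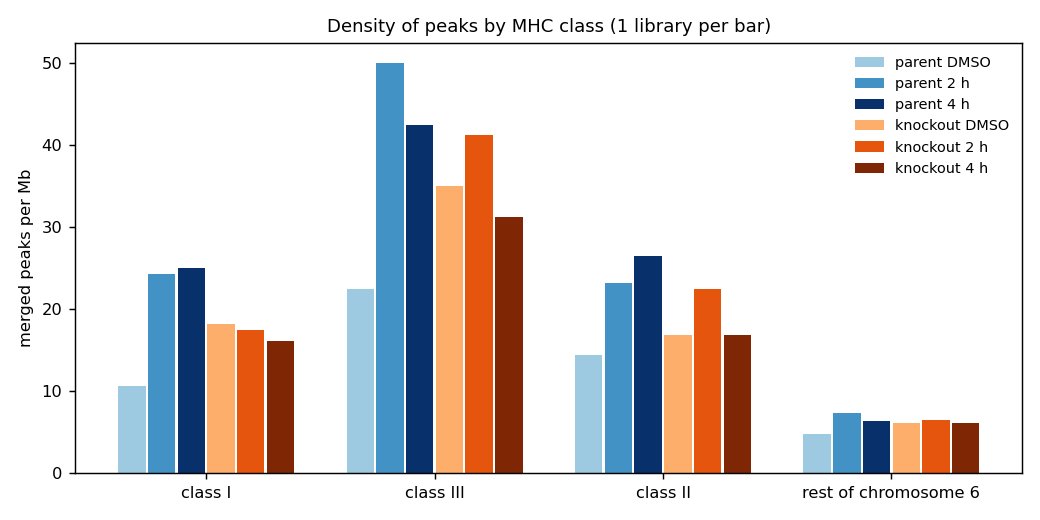
Merged peaks per megabase (vertical axis) in the 3 MHC classes and in the rest of chromosome 6, 1 bar per library, with conditions by library code. Class III is the tallest group in each library, from 22.5 in parent DMSO to 50 in parent 2 h, and each MHC class stands above the rest of chromosome 6 in the same library.

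As a share of the whole list, the MHC held 0.472% of the peaks in parent DMSO (interval 0.372 to 0.599%), 0.592% in parent 2 h (0.502 to 0.698%) and 0.648% in parent 4 h (0.549 to 0.764%). The knockout shares were 0.529% in DMSO (0.436 to 0.641%), 0.536% at 2 h (0.446 to 0.645%) and 0.485% at 4 h (0.396 to 0.594%). The intervals of all 6 libraries overlap. When each list was shortened to its 14205 most significant peaks, the MHC numbers were 67, 95 and 104 in the parent lists and 73, 76 and 72 in the knockout lists.

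The accessible regions were not spread evenly. Of 50 windows of 100 kb, 12 held no region in any library. The fullest was chr6:31777797-31877796 in class III, with 10 regions, of which parent DMSO held 2 peaks, parent 2 h held 9 and parent 4 h held 8. In class I, chr6:30577797-30677796 held 9 regions and chr6:30677797-30777796 held 8, and in class II chr6:33177797-33277796 held 7. The longest stretch without a region in any list was chr6:28985113-29595817 in class I, at 611 kb. Between regions of class II, the longest was chr6:32941000-33129335 (188 kb), and between regions of class III it was chr6:31940516-32095950 (155 kb). The stretch from the class II boundary at 32200000 to the first class II region, which starts at 32441306, held none either and is longer than any between class II regions. The median distance between neighbouring regions of a class was 18.2 kb in class I, 11.4 kb in class II and 7.43 kb in class III.

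**Figure D2:**
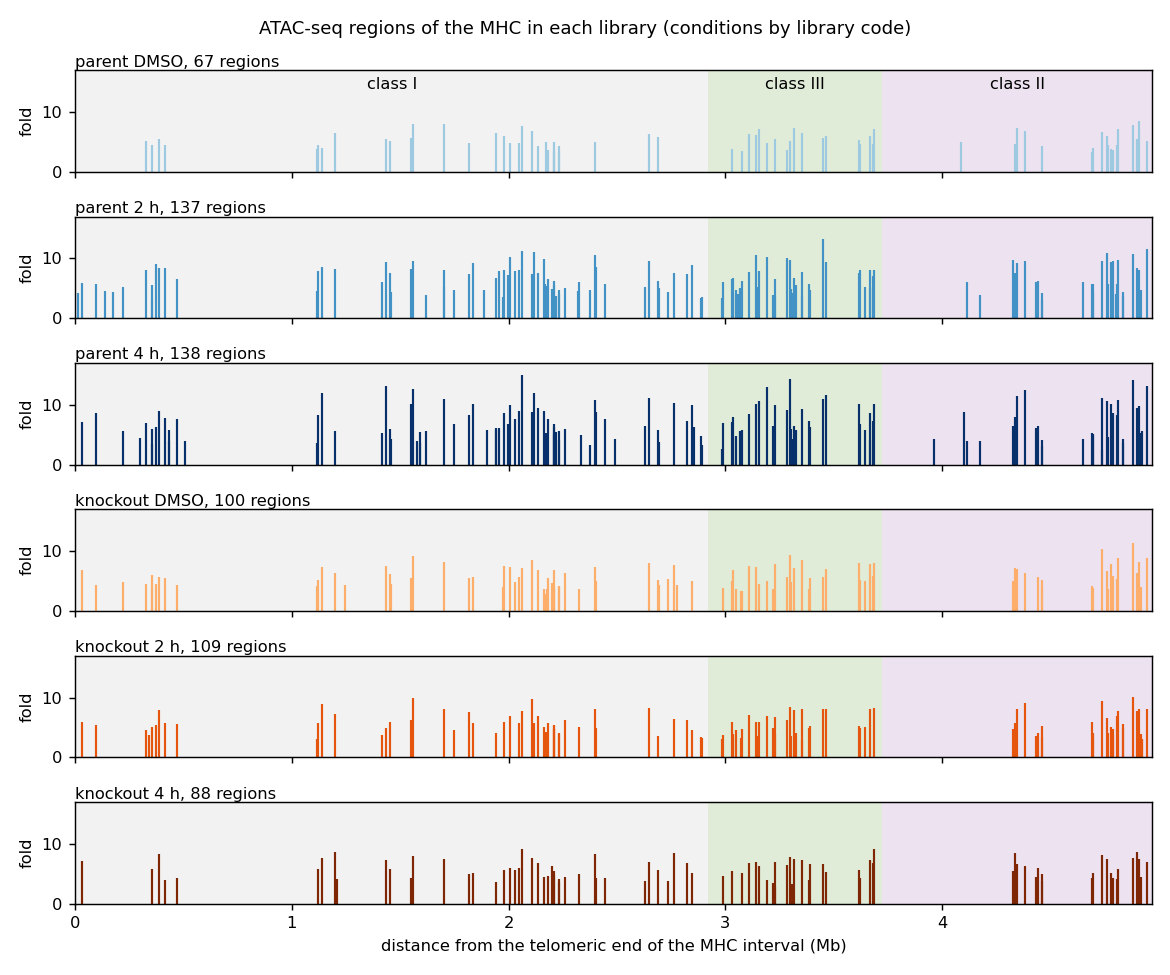
Regions of the union along the MHC, by distance in Mb from its telomeric end (horizontal axis), in each of the 6 libraries; the height of a line is the highest fold enrichment of the region in that list, and shading marks class I, class III and class II. The counts above the panels are regions of the union, in which close peaks of a list can fall together. The long gap in class I is empty in each library, and most regions absent from parent DMSO stand between regions that it holds.

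All 6 libraries shared 59 of the 164 MHC regions (36.0%, interval 29.0 to 43.6%), against 34.5% of the 31873 regions elsewhere (34.0 to 35.1%). Sharing by all libraries was 17 of 39 regions in class III (43.6%, 29.3 to 59.0%), 16 of 37 in class II (43.2%, 28.7 to 59.1%) and 26 of 88 in class I (29.5%, 21.0 to 39.8%). Regions found in 1 library alone numbered 2 of 39 in class III (5.13%, 1.42 to 16.9%), 8 of 37 in class II and 25 of 88 in class I (28.4%, 20.0 to 38.6%), against 27.3% elsewhere. Class III therefore held few regions that appear in a single list, with an interval below that of the regions outside the MHC. At least 1 parent list held 156 MHC regions (95.1%, 90.7 to 97.5%), against 84.4% of all regions, and at least 1 knockout list held 125 (76.2%, 69.2 to 82.1%), against 79.7%.

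Single-list regions came mostly from the parent camptothecin lists. Parent 4 h alone held 17 MHC regions (10.4%, 6.57 to 16.0%), against 6.14% of all regions, and parent 2 h alone held 9 (5.49%, 2.91 to 10.1%), against 7.69%. Of the 17, 13 were in class I and 4 in class II. Parent DMSO alone held 1 (0.610%), against 1.23%. Knockout DMSO, 2 h and 4 h alone held 3 (1.83%, 0.624 to 5.24%), 3 (1.83%, 0.624 to 5.24%) and 2 (1.22%, 0.335 to 4.34%), against 3.63%, 4.68% and 3.93%, and each interval includes the share of all regions.

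The strongest shared regions, ranked by their lowest fold enrichment over the 6 lists, were 651 to 1287 bp wide. The fold enrichment is the summit signal over local background as the authors' peak caller gave it, and describes a peak within its own list. In class I, chr6:30034423-30035285 led, with 8.03-fold in parent DMSO, 9.58 at 2 h and 12.7 at 4 h, and 9.20, 9.89 and 8.04-fold in the knockout lists. The reads piled up at its summit were 29, 71 and 124 in the parent lists and 38, 46 and 31 in the knockout lists. Next in class I came chr6:30180936-30181625, with a lowest value of 7.43-fold, and chr6:30538798-30539518, whose 15.01-fold in parent 4 h was the highest value of the MHC in any list.

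In class II, chr6:33359082-33359893 led, with 7.83-fold in parent DMSO, 10.7 at 2 h and 14.2 at 4 h, and 11.4, 10.2 and 7.73-fold in the knockout lists. Its summit pileup was 30, 88 and 151 in the parent lists and 54, 45 and 32 in the knockout lists, so the parent values stand in ascending and the knockout values in descending order of treatment time. It was followed by chr6:33385681-33386479 and chr6:33216824-33217474, with lowest values of 7.46 and 6.73-fold. In class III, chr6:32163114-32164028 led, with 7.08, 8.04 and 10.1-fold in the parent lists and 7.99, 8.31 and 9.14-fold in the knockout lists. It is also the last class III region before the class II boundary, and the next region, chr6:32441306-32441465, was held by parent 4 h alone. A class III region with another order was chr6:31794810-31795854, whose fold was 7.39, 6.68 and 6.40 in the parent lists and 7.24, 7.98 and 7.56 in the knockout lists. The highest summit pileup obtained in the MHC was at chr6:32145356-32146378 in class III. It was 34, 107 and 156 reads in the parent lists and 55, 66 and 46 in the knockout lists. The widest regions shared by all lists were chr6:32939382-32940999 in class II (1618 bp), chr6:30293607-30295112 in class I (1506 bp) and chr6:31632605-31634043 in class III (1439 bp). The class II region had low folds of 4.14 to 5.27 in the 6 lists although its summit pileup reached 124 reads in parent 4 h.

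Camptothecin against DMSO in parent cells was the comparison with the largest difference in MHC peaks. The 2 h list held 74 of its 140 MHC peaks where DMSO held none (52.9%, interval 44.6 to 60.9%), against 45.4% of all peaks of that list. It lacked 1 of the 67 DMSO peaks (1.49%, 0.264 to 7.98%), against 7.45% of all DMSO peaks. The 4 h list likewise added 74 of 140 peaks (52.9%, 44.6 to 60.9%), against 42.8% genome-wide, and lacked the same number, 1 of 67, against 11.2%. The DMSO peaks of the MHC were therefore, with 1 exception, overlapped by peaks of both camptothecin lists. As recorded, these pairs compare the 4 h sample with DMSO and with 2 h, and the same peaks read as missing at 4 h of camptothecin.

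The added share exceeded that of all peaks outside the MHC by 7.52 percentage points at 2 h (interval -0.74 to 15.6) and by 10.1 at 4 h (1.89 to 18.3). The interval excludes 0 at 4 h and not at 2 h. The MHC share itself was 52.9% at both times, whereas the share outside the MHC was 45.3% at 2 h and 42.7% at 4 h. On the rest of chromosome 6, 41.8% (39.1 to 44.6%) and 38.1% (35.2 to 41.1%) of peaks were added. Chromosomes 17 and 22, gene-rich chromosomes set beside the MHC after its values were seen, added 54.2% (51.8 to 56.5%) at 2 h and 54.6% (52.3 to 57.0%) at 4 h, so a gain of this size was not particular to the MHC. In log2 units, the number of MHC peaks relative to DMSO was 1.06 (0.64 to 1.48) at either time, against 0.73 at 2 h and 0.60 at 4 h outside the MHC and 1.08 and 1.07 on chromosomes 17 and 22. In lists of equal length, where whole lists do not differ in number by construction, the MHC value was 0.50 at 2 h and 0.63 at 4 h. These values are not on the same footing as the ratios of full lists given before them. With 1 library each, the treatment cannot be told apart from the lower signal of the parent DMSO library.

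By class, 40 of 71 class I peaks (56.3%, 44.8 to 67.3%), 22 of 40 class III peaks (55.0%, 39.8 to 69.3%) and 12 of 29 class II peaks (41.4%, 25.5 to 59.3%) of the 2 h list were added. At 4 h the shares were 42 of 73 in class I (57.5%, 46.1 to 68.2%), 16 of 34 in class III (47.1%, 31.5 to 63.3%) and 16 of 33 in class II (48.5%, 32.5 to 64.8%). The intervals of the classes overlap at both times. The class I share at 4 h stood 14.8 points above the peaks outside the MHC (3.37 to 25.5), and the other classes did not differ from them beyond counting error.

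**Figure D3:**
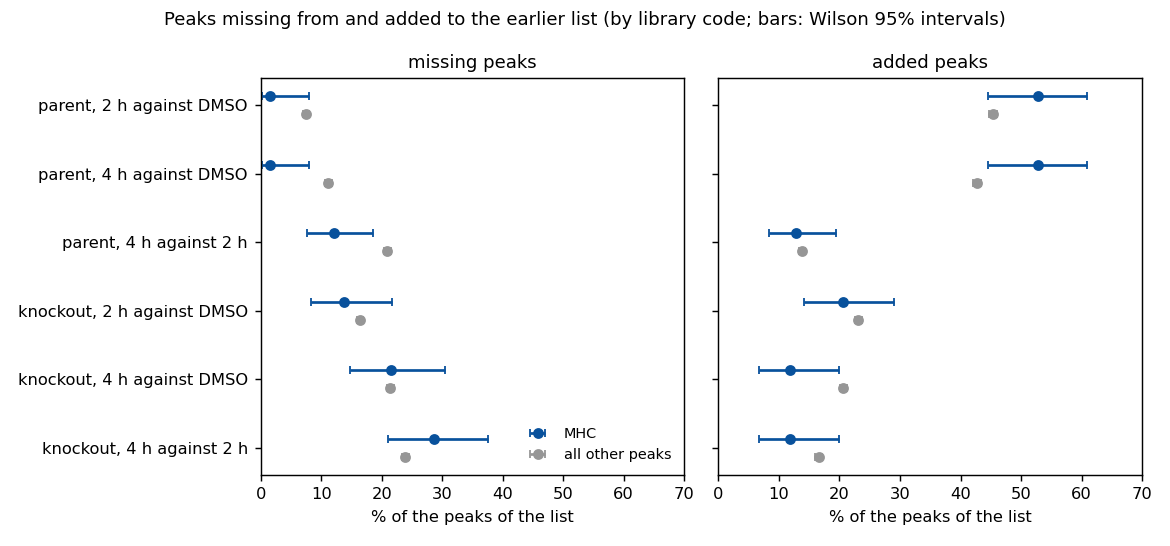
Percent of the earlier list's peaks that the later list lacks (left) and percent of the later list's peaks that the earlier list lacks (right), in 6 comparisons within a genotype, for the MHC (blue) and all other peaks (grey); bars are Wilson 95% intervals and conditions follow the library codes. Parent camptothecin lists add 52.9% of their MHC peaks and lack 1.49% of the DMSO peaks, whereas knockout lists add between 11.8% and 20.5%.

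Added peaks were narrower and lower than shared ones, as elsewhere in the genome. MHC peaks that the 2 h list added had a median width of 317 bp and a median summit pileup of 18 reads, whereas those shared with DMSO had 731 bp and 49 reads. Peaks of like significance were therefore set side by side, a step added after the values were seen. Among 2 h peaks with a -log10 q (the significance given by the authors' peak caller) from 5 to 10, 25 of 26 in the MHC were absent from DMSO (96.2%, 81.1 to 99.3%), against 72.4% of the peaks outside it (71.2 to 73.6%). From 10 to 20 the shares were 45.5% (29.8 to 62.0%) and 43.6%, and from 20 to 50 they were 18.5% (10.4 to 30.8%) and 8.01% (7.40 to 8.66%).

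In the 4 h list, 23 of 30 MHC peaks between 10 and 20 were absent from DMSO (76.7%, 59.1 to 88.2%), against 48.99% outside it (47.4 to 50.6%). Between 20 and 50 the shares were 28.2% (16.5 to 43.8%) and 15.5% (14.6 to 16.5%). The MHC share was the higher one in each class below 50 in both lists. The intervals did not overlap from 5 to 10 and from 20 to 50 at 2 h, nor below 5, from 10 to 20 and from 20 to 50 at 4 h, and they overlapped in the other classes. At 50 and over, 0 of 3 MHC peaks at 2 h and 0 of 26 at 4 h were absent from DMSO. Peaks of chromosomes 17 and 22 were not split by significance, so whether these higher shares are particular to the MHC was not tested.

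**Figure D4:**
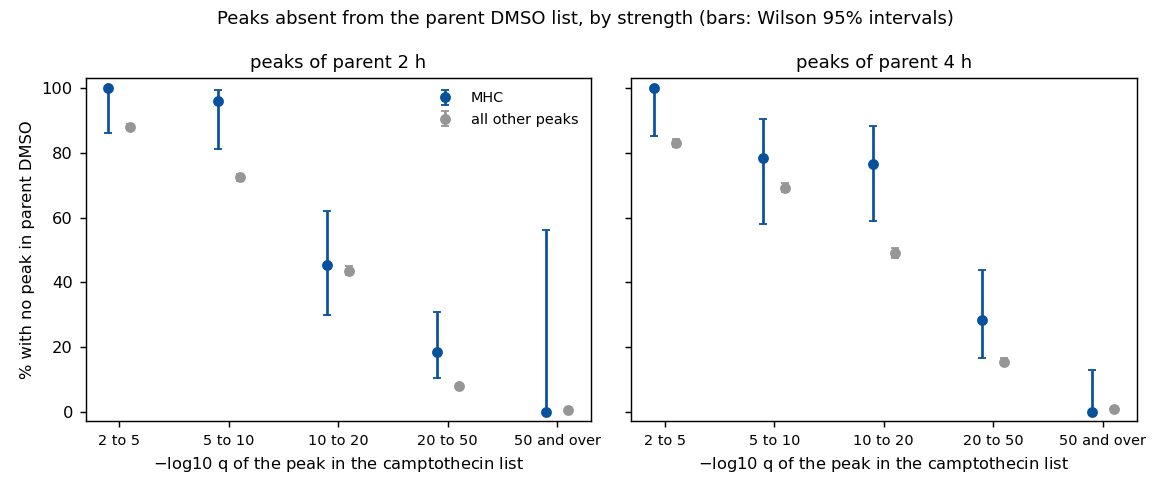
Percent of peaks of the parent 2 h (left) and parent 4 h (right) list with no overlapping peak in parent DMSO (vertical axis), in 5 classes of the -log10 q of the peak (horizontal axis), for the MHC (blue) and all other peaks (grey); bars are Wilson 95% intervals. Both series fall with peak strength, and the MHC points lie above the others in each class below 50.

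Parent DMSO held 67 of the 164 union regions (40.9%), against 43.3% of all regions, and both parent camptothecin lists together held 120 (73.2%, 65.9 to 79.4%), against 57.7%. Of the union regions, 54 in the MHC were held by both parent camptothecin lists and not by DMSO (32.9%, 26.2 to 40.4%), against 19.8% of all regions. They comprised 28 in class I, 15 in class III and 11 in class II. The reverse, held by DMSO and by neither camptothecin list, was found for 1 region (0.610%, 0.108 to 3.37%), against 2.48% of all regions. That region, chr6:32562738-32562923 in class II, was 186 bp wide with a summit pileup of 10 reads and was found in no other library. Under a -log10 q of at least 5 it was in no list.

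Parent DMSO was the one list to lack 16 MHC regions that the other 5 all held (9.76%, 6.09 to 15.3%), against 6.28% of all regions. They comprised 8 of the 88 regions of class I, 4 of 39 in class III and 4 of 37 in class II. The highest by mean fold was chr6:31239275-31240212 in class I, with 7.56-fold in parent 2 h and 10.4 in parent 4 h, and 7.62, 6.51 and 8.44-fold in the knockout lists. Its summit pileup was 37 and 56 reads in the parent lists that held it and 20, 21 and 24 in the knockout lists. It was followed by chr6:30312832-30313365, with 9.30 and 10.1-fold in the parent camptothecin lists and 5.09 to 5.74-fold in the knockout lists. The third was chr6:31324576-31325313, with 8.86 and 10.0-fold in the parent camptothecin lists and 5.02, 4.52 and 5.11-fold in the knockout lists. The regions named here lie in class I, and their summits held 13 to 24 reads in the knockout lists and 36 to 56 in the parent camptothecin lists. With a -log10 q of at least 5 the last of them was also absent from knockout 2 h.

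The remaining lists lacked few regions that the other 5 held. Knockout 4 h lacked 5 (3.05%, 1.31 to 6.94%), against 1.12% of all regions, of which 4 were in class I and 1 in class II. Among them chr6:30688947-30689536 had a summit of 98 reads at 6.26-fold in parent 4 h and of 39 reads at 5.35-fold in knockout 2 h. Knockout DMSO lacked 1 (0.610%), against 0.771%, and knockout 2 h lacked 1 (0.610%), against 0.353%; the latter was chr6:32157656-32158225 in class III, at 4.69 to 7.24-fold elsewhere. Parent 2 h and parent 4 h lacked 0 (interval up to 2.29% for each), against 0.194% and 0.971%.

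Among the 54 regions held by both parent camptothecin lists and not by parent DMSO, 12 were held by none of the other 4 lists. These were 7.32% of the MHC regions (4.23 to 12.4%), against 4.53% of all regions. The one with the highest lowest fold was chr6:30476878-30477407 in class I, at 7.21-fold in 2 h and 6.82 in 4 h, on pileups of 17 and 16 reads. The widest was chr6:31543155-31544224 in class III, 1070 bp, at 5.09 and 5.70-fold on pileups of 49 and 68 reads. Also in class III, chr6:32143831-32144050 had pileups of 66 and 72 reads at only 5.08 and 4.04-fold. The 12 regions were spread over class I (5), class III (4) and class II (3). By the recorded placement they are held by the DMSO and 2 h samples of parent cells.

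The 59 regions shared by all libraries were compared by the height of their signal. In each list their median summit pileup was divided by the median over the 11011 regions that all libraries shared outside the MHC. This ratio was 0.85 in parent DMSO, 1.06 in parent 2 h and 1.32 in parent 4 h, from MHC medians of 17, 52 and 78 reads and outside medians of 20, 49 and 59. In the knockout lists it was 0.962, 0.967 and 0.958. The MHC summits thus stood below the other summits in parent DMSO and above them in both parent camptothecin lists, while the knockout ratios were nearly equal. On chromosomes 17 and 22 the ratios were 0.9, 0.98 and 1.14 in the parent lists and 0.962, 0.967 and 0.958 in the knockout lists. A rise over the parent lists with nearly equal knockout ratios was therefore not particular to the MHC. As recorded, the parent values belong to 4 h, DMSO and 2 h in that order.

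The ratio differed by class. It was 0.95, 1.22 and 1.44 in the parent lists for class II and 1, 1.24 and 1.36 for class III. In class I it was 0.8, 0.949 and 0.966, so class I did not reach the outside median. The knockout ratios lay between 1.02 and 1.08 in class II, between 0.958 and 1.15 in class III and between 0.883 and 0.979 in class I. Region by region, 50 of 59 had a higher relative pileup in parent 4 h than in parent DMSO (84.7%, 73.5 to 91.8%), against 46.8% of the regions outside the MHC, and all 16 of class II did. For knockout 4 h against knockout DMSO the number was 27 of 59 (45.8%, 33.7 to 58.3%), against 55.5% outside. On chromosomes 17 and 22, 71.5% of 687 shared regions were higher in parent 4 h (68.0 to 74.7%), and on the rest of chromosome 6, 39.2% were. Presence in all 6 lists selects regions strong enough to be called in the parent DMSO library, whose median summit pileup was the lowest. The part that its lower signal has in these ratios was not tested.

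**Figure D5:**
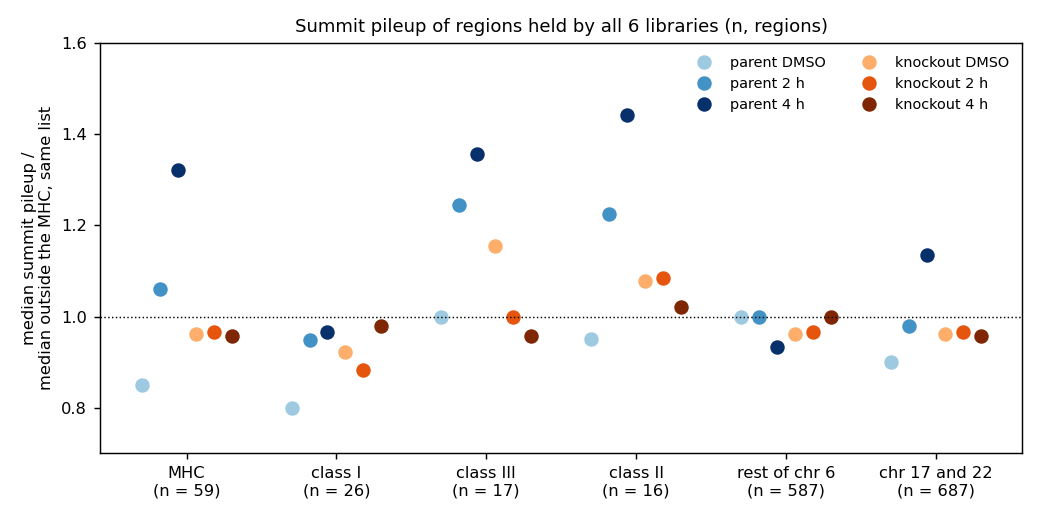
Median summit pileup of regions held by all 6 libraries, divided by the median over such regions outside the MHC in the same list (vertical axis), for the MHC, its 3 classes, the rest of chromosome 6 and chromosomes 17 and 22; 1 point per library, n is the number of regions. In the MHC the parent points run from 0.85 in DMSO to 1.32 in 4 h while the knockout points lie between 0.958 and 0.967.

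Between the parent camptothecin lists the MHC differed little. The 4 h list lacked 17 of the 140 peaks of the 2 h list (12.1%, 7.72 to 18.6%), against 20.9% of all peaks, and added 18 of 140 (12.9%, 8.29 to 19.4%), against 13.8%. The missing share was 8.82 points below that outside the MHC (-13.3 to -2.35), so fewer MHC peaks than other peaks lacked a partner. On chromosomes 17 and 22 the missing share was 12.4% (11.0 to 14.1%). None of the 34 class III peaks at 4 h was added (interval up to 10.2%), whereas 13 of 73 in class I and 5 of 33 in class II were. As recorded, this is the comparison of 2 h with DMSO.

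In SLFN11-knockout cells the camptothecin lists differed from DMSO in both directions and by smaller shares. The 2 h list added 23 of its 112 MHC peaks (20.5%, 14.1 to 28.9%), against 23.1% genome-wide, and lacked 14 of the 102 DMSO peaks (13.7%, 8.36 to 21.7%), against 16.5%. The 4 h list added 11 of 93 (11.8%, 6.73 to 19.9%), against 20.6%, and lacked 22 of 102 (21.6%, 14.7 to 30.5%), against 21.4%. In lists of equal length the latter MHC share was 13.7%, which is not on the same footing as the 21.4% from full lists. As recorded, these pairs compare the 4 h sample with DMSO and with 2 h. The added share at 4 h was 8.78 points below that outside the MHC (-13.9 to -0.63), and the other shares did not differ from it beyond counting error. On chromosomes 17 and 22 the added share at 4 h was 16.4%, also below that outside the MHC (difference -4.17, interval -6.29 to -1.84 points). On the log2 scale, the number of knockout MHC peaks relative to DMSO was 0.13 (-0.25 to 0.52) for 2 h and -0.13 (-0.54 to 0.27) for 4 h, and both intervals include 0.

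Class I took 13 of the 14 knockout DMSO peaks missing at 2 h and 15 of the 22 missing at 4 h. These were 13 of 53 class I peaks (24.5%, 14.9 to 37.6%) and 15 of 53 (28.3%, 18.0 to 41.6%), and neither share differed from that outside the MHC beyond counting error (differences 8.06, interval -1.55 to 21.1, and 6.89, interval -3.47 to 20.2 points). Class II lost 0 of 21 at 2 h and 1 of 21 at 4 h. From 2 h to 4 h the knockout lost 32 of 112 peaks (28.6%, 21.0 to 37.5%), against 24.0%, and gained 11 of 93 (11.8%, 6.73 to 19.9%), against 16.5%. Class III lost 11 of 33 and class II 8 of 28 in this comparison, which by the recorded placement sets 2 h against DMSO.

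Union regions held by both knockout camptothecin lists and not by knockout DMSO numbered 4 (2.44%, 0.952 to 6.10%), against 4.89% of all regions, and the reverse 8 (4.88%, 2.49 to 9.33%), against 6.66%. Of the 4, chr6:31300613-31301200 in class I had the highest lowest fold, at 6.33 and 6.78-fold in the knockout lists that held it, and was also in parent 2 h and 4 h at 7.33 and 7.29-fold. It was absent from both DMSO lists and present in all 4 camptothecin lists, on pileups of 14 to 20 reads. The class II region chr6:32908796-32909386 had the same pattern at 3.66 to 6.06-fold. Another, chr6:30418539-30418934, was held by each list other than knockout DMSO. With a -log10 q of at least 5 these last regions were in no knockout list, whereas the first kept its pattern. All 8 regions of the reverse kind lay in class I, led by chr6:28696515-28697253, which was also in both parent camptothecin lists.

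Genotypes were compared within each treatment. In DMSO the knockout list lacked 2 of 67 parent peaks (2.99%, 0.822 to 10.2%), against 11.6% genome-wide, and added 37 of 102 (36.3%, 27.6 to 45.9%), against 35.2%. At 2 h it lacked 34 of 140 (24.3%, 17.9 to 32.0%), against 26.4%, and added 4 of 112 (3.57%, 1.40 to 8.82%), against 15.4%. At 4 h it lacked 58 of 140 (41.4%, 33.6 to 49.7%), against 30.2%, and added 6 of 93 (6.45%, 2.99 to 13.4%), against 19.4%. The knockout thus had more MHC peaks than the parent in DMSO and fewer with camptothecin. The log2 ratio of knockout to parent was 0.61 (0.16 to 1.05) in DMSO, -0.32 (-0.68 to 0.04) at 2 h and -0.59 (-0.97 to -0.21) at 4 h. Outside the MHC the same ratios were 0.44, -0.18 and -0.17, and on chromosomes 17 and 22 they were 0.58, -0.31 and -0.58, so this order of signs was not particular to the MHC. In lists of equal length, where whole lists do not differ in number by construction, the DMSO value in the MHC was 0.12. As recorded, these belong to 4 h, DMSO and 2 h.

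Peaks of the knockout camptothecin lists that the parent lacked were rarer in the MHC than outside it, by 11.9 points at 2 h and 13.0 at 4 h (differences -11.9, interval -14.2 to -6.65, and -13.0, interval -16.6 to -6.11). At 4 h the missing share was 11.3 points higher in the MHC than outside (3.45 to 19.6), and 16.5 points higher in class I (5.45 to 27.8). Among parent 4 h peaks with a -log10 q below 5, 22 of 22 in the MHC were absent from knockout 4 h, against 71.2% outside it. From 5 to 10 they were 17 of 23 (73.9%, 53.5 to 87.5%), against 50.2% (48.7 to 51.7%). From 10 to 20 they were 15 of 30 (50%, 33.2 to 66.8%), against 27.2% (25.7 to 28.6%). From 20 to 50 they were 4 of 39 (10.3%, 4.06 to 23.6%), against 5.49%, and at 50 and over 0 of 26. Parent 2 h peaks were absent from knockout 2 h in 66.7%, 38.5%, 18.2% and 3.70% of cases in the rising classes below 50. Outside the MHC these were 68.1%, 43.1%, 13.4% and 0.696%. Knockout DMSO peaks were absent from parent DMSO in 76.7%, 35.3%, 7.14% and 0%, against 74.5%, 41.6%, 8.23% and 0.843%. Chromosomes 17 and 22, not split by significance, stood close to the MHC at 4 h, with 39.2% of parent peaks missing and 6.56% of knockout peaks added. At 2 h their added share was 9.02% (7.62 to 10.6%), against 3.57% (1.40 to 8.82%) in the MHC. Their missing share at 2 h was 27.7%, against 24.3%. Over all lists of a genotype, 8 MHC regions were found in some knockout list and in no parent list (4.88%, 2.49 to 9.33%), against 15.6% of all regions, and 39 the other way (23.8%, 17.9 to 30.8%), against 20.3%.

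No MHC region was held by all 3 libraries of 1 genotype and by none of the other. The count was 0 of 164 for parent-only and 0 of 164 for knockout-only regions (interval up to 2.29% for each), against 0.309% and 0.715% of all regions. These counts do not depend on the placement of the lists. With a -log10 q of at least 5, 1 MHC region was held by parent lists alone, and in lists of equal length 2 were.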

How the data were processed

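ATAC-seq peak lists of 6 libraries were used, 1 per group. Per the submitters' processing notes, the tools were MACS2 2.1.2, Picard 2.9.2, SAMtools 1.8, BWA 0.7.17, Trimmomatic 0.39 and Trim Galore 0.6.2, with no role stated, and the build was hg19. Read shift, extension, treatment of duplicates, the mapping filter and whether alternative MHC haplotype sequences were part of the alignment reference were not stated in the sources used; the last of these bears on how reads map within this polymorphic stretch. The deposited fold is the authors' ratio of summit to local background signal. The authors' score is the deposited -log10 q times a constant, and the -log10 p and -log10 q come from the same caller. Lists held 18407 to 33916 entries, read totals were not used here, and peaks were called per library.

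Entries on chromosomes 1 to 22 and X that overlap within a list were merged, and classes were assigned by midpoint. Lists were compared by an overlap of at least 1 bp. Differences of shares carry Newcombe intervals. Summit pileup was recovered from fold and p under a Poisson model, and for every MHC peak the model gave the deposited -log10 p within 0.001. For a peak merged from several entries it is that of the entry with the highest fold, so a deeper summit of lower fold can be missed. The functions were tested on simulated data. Named regions are, per class, those of highest lowest fold and greatest width among regions in all lists, then per pattern of presence those of highest fold, with the fullest windows and longest gaps; not all of them appear in the text. The alternatives tried were lists of 14205 peaks, a -log10 q minimum of 5, a 50% overlap, entries as deposited, shifted class boundaries and the recorded placement. The members, lists and comparisons were chosen with earlier results of these data known. Python 3.11.15, pandas 2.3.3 and scipy 1.17.1 were used.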

Additional observations from a re-analysis of the deposited data

Results flagged for a closer look

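In some comparisons the log2 ratio of peak number had opposite signs in the genotypes, with 1 library each and no test of the difference. For the whole MHC at 4 h against DMSO, the log2 ratio was 1.06 in parent and -0.13 in knockout cells. The same ratios were 0.60 and -0.01 outside the MHC and 1.07 and -0.09 on chromosomes 17 and 22, so the contrast was not particular to the MHC. In class I it was 1.2 and -0.06 at 2 h against DMSO, 1.24 and -0.17 at 4 h against DMSO, and 0.04 and -0.12 at 4 h against 2 h. In class III at 4 h against DMSO it was 0.92 and -0.16, and in class II at 4 h against 2 h it was 0.19 and -0.42. Signs were the same at 2 h against DMSO for the whole MHC (1.06 and 0.13), class III (1.15 and 0.24) and class II (0.69 and 0.42). In class II at 4 h against DMSO the values were 0.87 and 0. The 95% interval of each knockout value of the MHC and its classes includes 0. So do those of both parent values for 4 h against 2 h and of the parent class II value for 2 h against DMSO. Under the recorded placement the parent and knockout values of the whole MHC at 4 h are both negative, -1.06 and -0.13.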

How the results depend on the processing

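No paired analysis was possible because each group has 1 library, and for the same reason no replicate could be left out. The recorded placement changed most values. Under it the log2 ratio of MHC peak numbers turned to -1.06 for parent 4 h against DMSO, to -0.32 for knockout against parent in DMSO and to 0.61 for the same at 4 h; it was 0 for parent 2 h against DMSO, -1.06 for parent 4 h against 2 h, and in the knockout -0.27 for 2 h against DMSO and 0.13 for 4 h against 2 h. Missing and added shares became 12.1% and 12.9% (parent 2 h against DMSO), 52.9% and 1.49% (parent 4 h against DMSO, and 4 h against 2 h), 28.6% and 11.8% (knockout 2 h against DMSO) and 11.8% and 21.6% (knockout 4 h against 2 h). Between genotypes they became 24.3% and 3.57% in DMSO and 2.99% and 36.3% at 4 h, and the missing share at 2 h became 41.4%.

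The missing and added shares in this paragraph are of MHC peaks alone. Shares of all peaks were given above for full lists only, so they are not on the same footing. In lists of equal length the added share was 31.6% at 2 h and 39.4% at 4 h in parent cells (log2 ratios 0.50 and 0.63). The share missing at 4 h against 2 h was 7.37%, and that missing at 4 h in the knockout 13.7%. Knockout against parent in DMSO gave 13.4% missing, 20.5% added and a log2 ratio of 0.12. Class I held 44 peaks in parent 2 h and 33 in knockout DMSO, and parent-only regions numbered 2. With a -log10 q of at least 5, parent shares were 0% missing at both times and 61.2% and 61.9% added, 13.9% were missing at 4 h in the knockout, and 2.86% were added in knockout against parent at 4 h. Class I then held 19 peaks in parent DMSO, 32 in knockout DMSO and 31 in knockout 4 h, and 1 region was parent-only. Counting entries as deposited gave 215 in parent 2 h (111 in class I, 46 in class II) and 33 in class II of knockout 4 h. An overlap of 50% and boundaries moved by 100 kb moved no value this far. Of 57 named regions, 23 were held by another number of lists under the q limit and 21 in lists of equal length. The cause of these changes was not tested, other than that equal length and the q limit remove peaks by construction. Median summit pileups of 17 to 29 reads limit what can be said of weak peaks.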

Other observations

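Class II was divided into 2 stretches of nearly equal length that differed in the number of called regions. The limit was placed at the start of a region after the values were seen, and the division is given as a description. How reads map in either stretch was not examined. From 32200000 to 32806009, over 606 kb, the union held 5 regions, none of them in more than 2 libraries. All 5 were in parent lists and in no knockout list, against 20.3% of all regions. From 32806010 to the centromeric end, over 642 kb, the union held 32 regions. Of the 32, 16 were in all 6 libraries, against 34.5% of the regions outside the MHC. At least 1 knockout library held 28 of the 32, against 79.7% of all regions. The strongest of the 5 was chr6:32577711-32578065, 355 bp wide, at 8.85-fold on a pileup of 20 reads in parent 4 h alone. It was the single-list region of highest fold in the MHC. The pair chr6:32590379-32591066 and chr6:32653529-32653714 was held by both parent camptothecin lists, on pileups of 8 to 13 reads. The remaining regions of the 5, chr6:32441306-32441465 and chr6:32562738-32562923, had pileups of 10 reads each. The lowest pileup of any MHC peak was 8 reads, so absence of such weak peaks from other lists says little.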
